A study of Mus musculus with 15 samples.

Results

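The response of wild type mouse skin to MC903 was described here across all genes that the skin libraries measured. MC903, also called calcipotriol, is a synthetic analog of vitamin D that produces a dermatitis resembling atopic dermatitis when it is put on mouse skin. The members were the genes with a value of at least 0.5 FPKM (fragments per kilobase of gene length, scaled to the depth of the library) in at least 3 of 6 wild type skin libraries, which left 16507 of 54532 listed genes. Of these libraries 3 came from untreated wild type skin and 3 from wild type skin after MC903 for 7 days. The same design was repeated in skin labelled Trpv3-knockout, with 3 untreated and 3 MC903 libraries, and the series also holds 3 samples of dorsal root ganglion that were not used here. The labels name no vehicle, body site, age or sex, nor is it stated that libraries of 1 group were made from different mice. The p-values therefore measure the spread between libraries, which may be technical. In the model this spread was pooled over wild type and knockout libraries. Effects of handling or of a solvent and effects of MC903 cannot be told apart.

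Skin is a layered organ. Its epidermis renews itself from a basal layer of dividing keratinocytes, which move upward, change their keratins, and end as dead cornified cells sealed by lipids. Below it the dermis holds fibroblasts with their collagen, hair follicles with sebaceous glands, vessels, nerves wrapped by Schwann cells, and a layer of fat. Vitamin D acts through the vitamin D receptor, a nuclear receptor that pairs with a retinoid X receptor and switches on target genes, and keratinocytes exposed to it release cytokines that recruit leukocytes.

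The 12 skin libraries held between 16869716 and 18485698 reads. The values of the 3 libraries of a group are given below in the order of their replicate numbers, n = 3 per group throughout, and errors of log2 fold changes are standard errors. Among the wild type libraries, untreated replicate 3 stood apart from the other untreated libraries on the second principal component, at -42.6 against 13.3 and 31.1. It had more RNA of dermis and muscle and less of epidermis, and results that moved without it are named below. Keratinocyte markers were present throughout, with a summed level of 2123 to 2998 FPKM in untreated libraries and 14822 to 22714 after MC903, and 6 of 7 passed as higher. Markers of fibroblasts (5 of 5 lower, summed level 927 to 1623 against 389.7 to 490.1 FPKM), adipocytes (4 of 4 lower, 243 to 376 against 65 to 80.8) and Schwann cells (5 of 5 lower, 177 to 189 against 16.9 to 25.6) were also found. Neutrophil markers were near 0 before MC903, with 1.06 to 1.29 FPKM against 16.6 to 33.4, and the marker Ly6g stayed below the minimum. In RNA of whole skin, fewer cells of a type and less RNA per cell cannot be told apart. The part that a changed mixture of cells has in any result below was not tested.

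MC903 changed most of the measured transcriptome. Of the 16507 genes, 65.7% passed at an adjusted p below 0.05 in a limma model of log2(FPKM + 0.5), 5688 of them higher (34.5%) and 5161 lower (31.3%). A change of at least 2-fold was reached by 4141 genes (25.1%), with 2242 higher (13.6%) and 1899 lower (11.5%). The groups did not overlap for 66.2% of all genes. Counts of list members on the scale as deposited are to be read against these shares and against the median log2 fold change of all genes, which was 0.04. Large rises were more common than large falls. Between 1 and 2 on the log2 scale 1599 genes were higher and 1620 lower, between 4 and 6 it was 64 and 3, and at 8 or more it was 26 and 0. The 20 most abundant genes of a library held 21 ± 1.80% of its summed FPKM untreated and 22 ± 2.15% after MC903 (SD, n = 3 each; exact two-sided permutation p = 0.6, where 0.1 is the smallest that 3 against 3 allows). The 100 most abundant genes held 34.2 ± 1.42% and 39.4 ± 2.07% of FPKM, and 21 ± 0.344% and 23 ± 0.961% of reads, and in both the groups did not overlap (exact two-sided permutation p = 0.1). The total of FPKM was not the same in the groups, with sums of 298412 to 325272 in untreated libraries and 411163 to 455935 after MC903. Rescaling to TPM (a scaling that makes all libraries sum to the same total) shifted the median log2 fold change over all genes by -0.40. Of the genes that then passed 27.1% were higher, where the deposited scale had 52.4%. With total reads as the scale the shift was -0.18 and the share 40.6%. A small fold change therefore has no sign of its own, and the scaling is named below where it turns the direction of a group. When scaled to TPM, 3029 of the 16507 genes passed as higher and 8156 as lower, with a median log2 fold change of -0.37. Counts of list members scaled to TPM are to be read against these values.

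**Figure D1:**
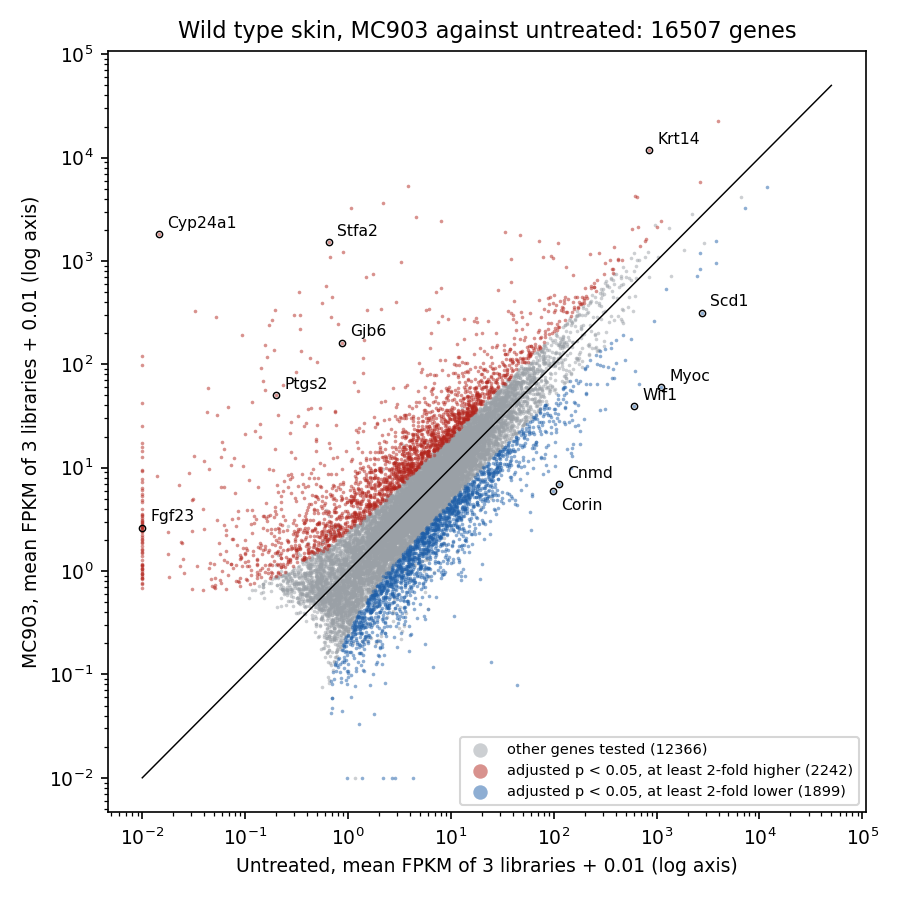
Mean FPKM of the 3 untreated (x axis) and 3 MC903 libraries (y axis) of wild type skin for 16507 genes, both plus 0.01 on log axes; the line marks equal levels. Genes at least 2-fold higher with an adjusted p below 0.05 (2242, red) reach much farther from the line than those lower (1899, blue); open circles mark genes named in the text.

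The members differed in how they moved when they were grouped by function, as the plot of gene lists shows. At the upper end stood the stress keratins, the Lce3 genes, the stefins and the kallikreins, known from keratinocytes, of which stefin A genes are known from neutrophils too. At the lower end stood genes of cartilage, Schwann cells, red cells, fat and dermal matrix. Epidermal lists mostly had medians above 0. Neutrophil genes and CC chemokines were higher where they passed, while lists of macrophages, lymphocytes and dendritic cells were split in both directions. Lists of fibroblasts, collagens, proteoglycans and fat had medians below 0.

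**Figure D2:**
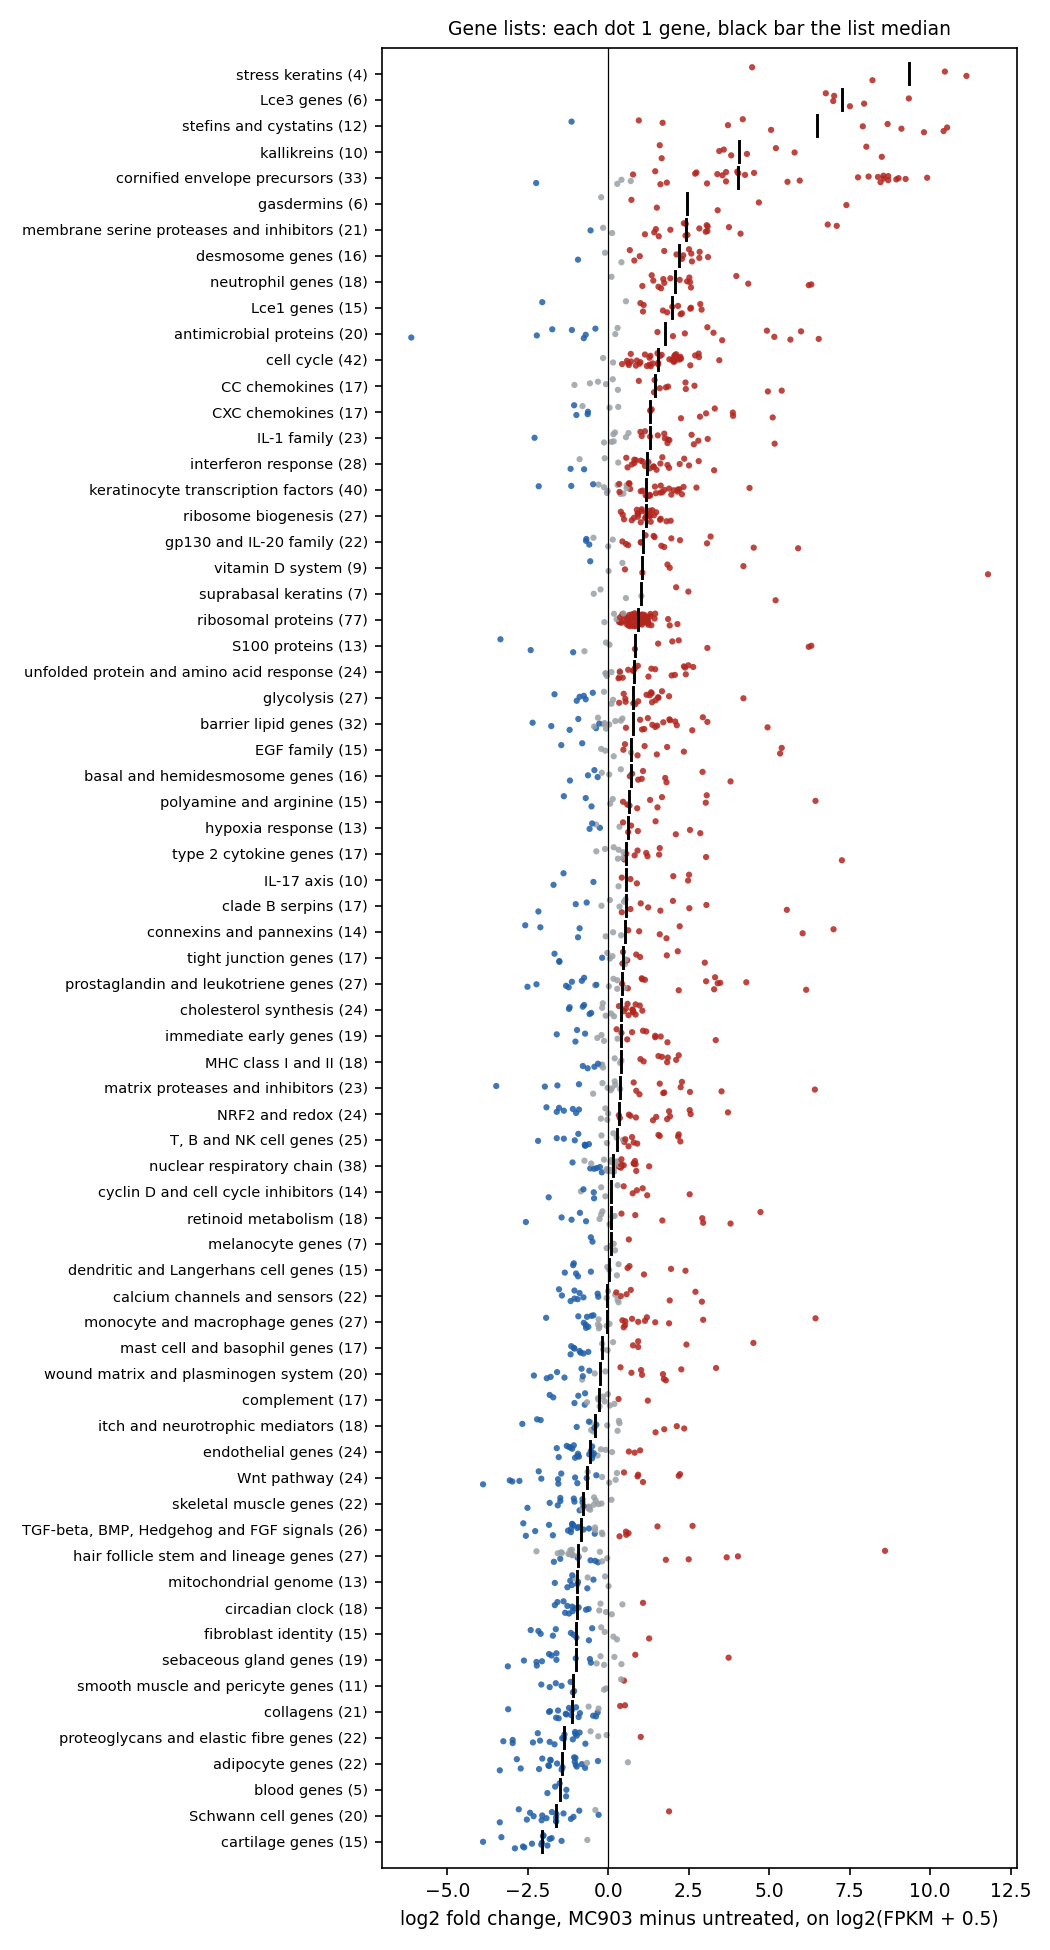
The log2 fold change of each tested member of the gene lists (MC903 minus untreated, on log2(FPKM + 0.5)); red dots passed as higher, blue as lower, grey did not pass, and the black bar is the median of the list with its number of genes in parentheses. Medians run from 9.34 for 4 stress keratins to -2.06 for 15 cartilage genes.

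The direct targets of vitamin D were examined first, since they check that the treated libraries had seen the drug. Cyp24a1, which encodes the enzyme that degrades active vitamin D (ENSMUSG00000038567, chromosome 2, 170482708 to 170497145), had 0, 0.0139 and 0 FPKM untreated and 1642, 1604 and 2217 after MC903. S100g, a calcium-binding protein of vitamin D target tissues, had no read in any untreated library and 9.59, 4.74 and 14.1 FPKM after MC903, at least 30.0-fold higher when 3 reads per library are taken as the floor. The epithelial calcium channel Trpv6 went from 1.81, 1.02 and 1.01 to 6.79, 5.59 and 5.90 FPKM (log2 fold change 1.91 ± 0.27, limma adjusted p = 9e-05). The receptor gene Vdr itself went from 7.51, 9.68 and 5.15 to 16.4, 15.2 and 15.2 (log2 fold change 1.06 ± 0.18, limma adjusted p = 0.00034), which did not overlap. Its partner Rxra had 41, 35.2 and 47.6 untreated and 48.8, 42.3 and 34.2 after MC903 and did not pass. Cyp27a1, an enzyme that helps to make active vitamin D, fell from 11, 11.7 and 11.6 to 7.70, 8.35 and 6.72 (log2 fold change -0.56 ± 0.17, limma adjusted p = 0.011). Of 9 tested genes of the vitamin D system 6 were higher and 1 lower, with a median of 1.06, and 5 were higher and 2 lower when scaled to TPM. Fibroblast growth factor Fgf23, a hormone that lowers phosphate and vitamin D and is known mainly from bone, was also listed at 0 in all untreated skin libraries. It stood at 2.21, 3.53 and 2.17 FPKM after MC903, at least 31.4-fold higher by the same floor.

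Keratins of the basal layer rose, except for a marker of hair follicle stem cells. Krt14, the main type I keratin of basal cells (ENSMUSG00000045545, chromosome 11, 100203162 to 100207548), went from 838, 953 and 746 to 14216, 10164 and 11197 FPKM (log2 fold change 3.80 ± 0.19, limma adjusted p = 5.1e-08), and no MC903 library came near the untreated ones. Its partner Krt5 went from 603, 624 and 502 to 2641, 1822 and 1698 (log2 fold change 1.81 ± 0.19, limma adjusted p = 7.9e-06). The groups did not overlap for either keratin. Krt15, a keratin of quiescent basal cells and of the hair follicle bulge, fell from 436, 282 and 372 to 199, 158 and 122 (log2 fold change -1.19 ± 0.20, limma adjusted p = 0.00034). Among the genes that anchor basal cells to the basement membrane, integrin Itga3 rose from 7.08, 7.32 and 7.52 to 25.4, 25.9 and 27.2 FPKM (log2 fold change 1.77 ± 0.09, limma adjusted p = 5.9e-08). Itgb4, the integrin of hemidesmosomes, rose from 16.1, 16 and 14.1 to 36.3, 31.1 and 29.8. Not all parts of the hemidesmosome followed. The linker Plec had 22.7, 23.3 and 25.1 untreated and 24.4, 24.7 and 23.3 after MC903 and did not pass, although its log2 fold change was -0.44 when scaled to TPM. Dst, another hemidesmosome linker, fell (-0.63 ± 0.12). Of 16 basal and hemidesmosome genes 9 were higher and 4 lower (median 0.70), and when scaled to TPM 7 were higher and 6 lower.

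The suprabasal keratins did not share 1 response. Krt1 went from 44.3, 64.5 and 31.7 to 2518, 1936 and 947 FPKM (log2 fold change 5.20 ± 0.34, limma adjusted p = 2.8e-07). Krt10, which forms filaments with Krt1 in the same cells, had 1399, 759 and 764 and 3123, 2809 and 795 and did not pass (limma adjusted p = 0.073). MC903 replicate 3 was the lowest MC903 library for both, and for Krt10 it lay at the level of the untreated libraries. Without it Krt10 passed (limma adjusted p = 0.0013), as it did without untreated replicate 1 (0.043). Krt2, a keratin of the upper layers, had 1153, 565 and 732 untreated and 1660.1, 1239 and 729 after MC903 (limma adjusted p = 0.18, and 0.04 without MC903 replicate 3). Of the 7 tested suprabasal keratins 3 rose and none fell (3 and 1 when scaled to TPM), and 5 were higher without MC903 replicate 3. The others that rose were Krt78 (2.49 ± 0.21) and Krt80 (2.11 ± 0.23). Krt77 (-0.45 ± 0.41) and Krt79 (-0.24 ± 0.16) did not pass, but Krt79 was lower without MC903 replicate 1 (limma adjusted p = 0.0064). Of the stress keratins, which epidermis makes during wounding and inflammation, Krt17 rose from 75.6, 87.7 and 51.9 to 1542, 1421 and 1753 FPKM (log2 fold change 4.47 ± 0.20, limma adjusted p = 2e-08), from a higher level than Krt6a. The latter went from 7.86, 10.4 and 5.58 to 2524, 2298 and 2461. Krt6a and Krt6b are near-identical copies, so the split of reads between them is uncertain.

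Genes of desmosomes rose broadly, and genes of tight junctions split. Desmosomes are plaques that tie the keratin filaments of neighbouring cells to each other. Of 16 desmosome genes 13 were higher and 1 lower, with a median of 2.20. The cadherin Dsc2 went from 1.71, 3.41 and 1.21 to 21.9, 24.5 and 16.3 FPKM (log2 fold change 3.10 ± 0.27, limma adjusted p = 2.3e-06). The plaque protein Pkp3 went from 30.3, 28.5 and 24.3 to 220.2, 191 and 190.0 (log2 fold change 2.84 ± 0.16, limma adjusted p = 1e-07). Jup, plakoglobin, which links the cadherins to the plaque, rose from 50.6, 38.6 and 39.5 to 253, 209 and 189. Dsg2, the desmoglein of simple epithelia and heart, fell from 5.26, 4.94 and 4.69 to 2.27, 2.54 and 2.24 (log2 fold change -0.94 ± 0.13, limma adjusted p = 6.6e-05). Tight junctions seal the granular layer. Their gene Cldn4 rose from 14.7, 9.45 and 6.94 to 90.0, 73.2 and 86.7 FPKM (log2 fold change 3.0 ± 0.22, limma adjusted p = 6.4e-07). Crb3, a polarity protein, rose from 4.95, 3.99 and 3.81 to 20.6, 19.1 and 22.3, and the adhesion molecule F11r from 12.8, 14.1 and 12.5 to 52.4, 44 and 46.5. Of the 4 that fell, Cldn8 (-1.52 ± 0.31), Cldn10 (-1.52 ± 0.19) and Cgnl1 (-1.67 ± 0.10) are known from glands and simple epithelia. The remaining gene is not particular to these. In all 8 of 17 tight junction genes were higher and 4 lower, or 4 and 4 when scaled to TPM.

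The connexins, which form channels between cells, included some of the largest rises among junction genes. Gjb6, connexin 30, went from 0.902, 1.46 and 0.235 to 159, 155 and 171 FPKM (log2 fold change 7.0 ± 0.29, limma adjusted p = 1.5e-08). Gjb2, connexin 26, went from 5.39, 10.3 and 1.63 to 359, 369.9 and 288 (log2 fold change 6.04 ± 0.44, limma adjusted p = 6.2e-07). Both were lowest in untreated replicate 3 and varied little after MC903, and the groups did not overlap. Gja1, the most widespread connexin, rose from 10.1, 13.7 and 8.23 to 41.5, 40.2 and 32.6 (log2 fold change 1.81 ± 0.16, limma adjusted p = 2.6e-06). Gjc3, a connexin of myelinating glia, fell from 3.35, 3.21 and 2.15 to 0.384, 0.353 and 0.123. The channel gene Panx3 fell from 22.7, 26.2 and 12.6 to 3.34, 3.42 and 2.01 (log2 fold change -2.58 ± 0.26, limma adjusted p = 5.6e-06). Its relative Panx1, a release channel for ATP, rose from 2.38, 2.74 and 1.81 to 12.2, 11.2 and 14.3 (log2 fold change 2.22 ± 0.16, limma adjusted p = 6.1e-07). In all 7 of 14 were higher and 4 lower, or 5 and 5 when scaled to TPM.

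**Figure D3:**
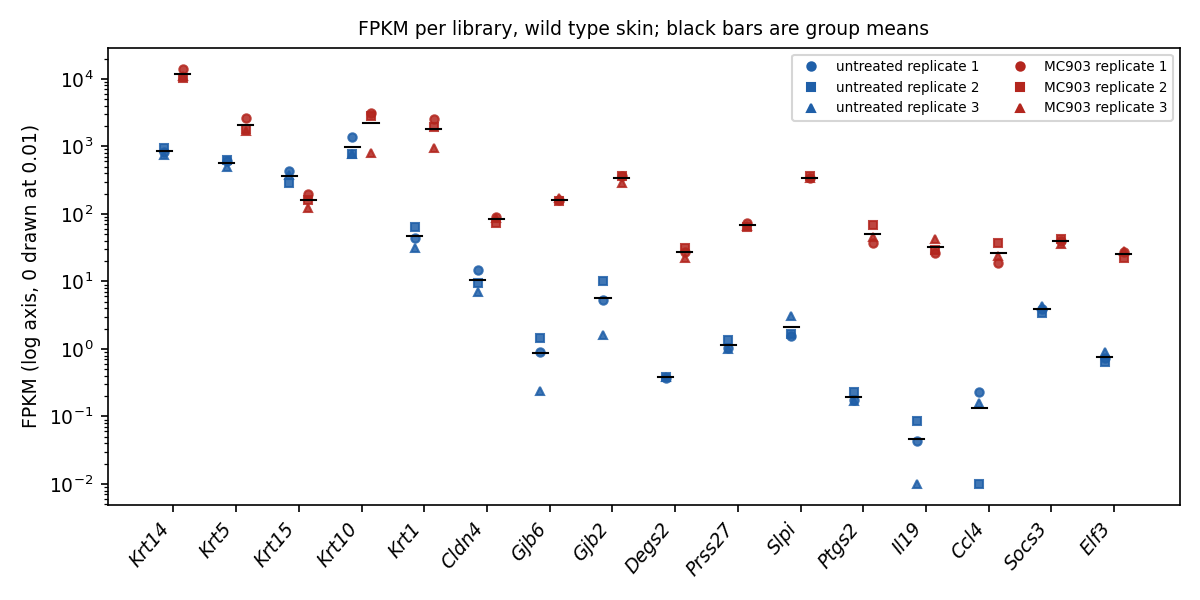
FPKM of 16 genes in each of the 3 untreated (blue) and 3 MC903 libraries (red) of wild type skin on a log axis, with bars at the group means and 0 drawn at 0.01. Apart from Krt10, where MC903 replicate 3 lies among the untreated libraries, the groups do not overlap, and only Krt15 is lower after MC903.

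Genes of the cornified envelope, the protein shell of dead keratinocytes, showed some of the largest rises. Of 33 tested precursors 29 were higher and 1 lower, with a median of 4.04, or 4.53 when the 2 genes without a read in untreated skin are placed at their lower bounds. The small proline-rich gene Sprr2d went from 0.959, 1.46 and 0.230 to 1295, 1314 and 1090.3 FPKM (log2 fold change 9.91 ± 0.34, limma adjusted p = 3.9e-09). Rptn, which encodes repetin, went from 1.39, 2.0 and 1.12 to 639, 588 and 891 (log2 fold change 8.46 ± 0.21, limma adjusted p = 5.8e-10). Flg2 went the other way, from 26.7, 17.3 and 10.4 to 2.84, 4.27 and 2.68 (log2 fold change -2.24 ± 0.29, limma adjusted p = 3.9e-05). Late cornified envelope genes fall into groups by their place in the cluster. All 6 Lce3 genes, which are known from damaged skin, rose (median 7.27), with Lce3d at 0.102, 1.72 and 0 untreated and 438, 669 and 615 after MC903. The Lce1 genes of normal skin, tested together with Lce6a, had a median of 1.99, with 13 of 15 higher. Only Lce1m fell, from 322, 214 and 253 to 67.8, 80.6 and 44.6 FPKM (log2 fold change -2.05 ± 0.25, limma adjusted p = 2.6e-05), and Lce6a (0.55 ± 0.29) did not pass, although it did without untreated replicate 1 or without untreated replicate 2 (limma adjusted p = 0.048 and 0.044). The Sprr2 and Lce genes are families of near-identical copies, so the level of any 1 member is uncertain.

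The enzymes that make the lipids between cornified cells split by branch. Degs2, which makes phytoceramides, went from 0.370, 0.384 and 0.385 to 27.6, 31 and 22.1 FPKM (log2 fold change 4.95 ± 0.16, limma adjusted p = 2.9e-09). Alox12b, a lipoxygenase that prepares ceramides for attachment to the envelope, went from 9.80, 5.20 and 4.32 to 61.6, 59.6 and 45.9 (log2 fold change 3.08 ± 0.27, limma adjusted p = 2.3e-06). Cers3, the ceramide synthase of epidermis, rose from 7.19, 5.79 and 3.93 to 36, 38.5 and 33.6 (log2 fold change 2.61 ± 0.19, limma adjusted p = 6.2e-07). Ugcg, which adds glucose to ceramide, rose from 14.7, 14.3 and 11.1 to 54.6, 61.6 and 64.3. All of these act in the granular layer, and their groups did not overlap. Fa2h, which hydroxylates fatty acids and is abundant in sebaceous glands, fell from 404, 446 and 295 to 80.1, 83.7 and 58.6 (log2 fold change -2.35 ± 0.21, limma adjusted p = 2.4e-06). Elovl6, an elongase of fatty acid synthesis, fell from 230.4, 293 and 159 to 72.3, 71.6 and 50.7 (log2 fold change -1.77 ± 0.20, limma adjusted p = 1.6e-05). The transporter Slc27a4 fell as well, from 136, 132 and 118 to 71.6, 70.2 and 61.0. In all 17 of 32 barrier lipid genes were higher and 6 lower, or 16 and 10 when scaled to TPM. Their summed share of reads was 0.720 ± 0.174% untreated and 0.495 ± 0.0425% after MC903 (SD). Of 24 genes of cholesterol synthesis and uptake 13 were higher and 6 lower as deposited, but 3 higher and 9 lower when scaled to TPM. Mvk, mevalonate kinase, rose from 14.8, 12.5 and 14.5 to 35.6, 26.6 and 27.5 (log2 fold change 1.06 ± 0.12, limma adjusted p = 1.6e-05).

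Kallikreins, which help to shed cornified cells, rose, and so did most genes of a mixed list of membrane serine proteases and protease inhibitors. All 10 tested kallikreins, serine proteases of the outer epidermis, were higher (median 4.06). The rises were uneven. Klk5, which is thought to start the cascade, went from 25.1, 17.4 and 10.8 to 58, 53.9 and 50.4 FPKM (log2 fold change 1.66 ± 0.24, limma adjusted p = 9.2e-05). Klk7, which it activates, went from 105, 82.1 and 49.2 to 999.7, 917 and 1337 (log2 fold change 3.82 ± 0.25, limma adjusted p = 2.9e-07). Klk12 went from 0.378, 0.0415 and 0.394 to 28.6, 23.8 and 29.8 (log2 fold change 5.21 ± 0.20, limma adjusted p = 9.7e-09). Of 21 genes of membrane serine proteases and of protease inhibitors 18 were higher and 1 lower. Slpi, a secreted inhibitor of neutrophil elastase, went from 1.58, 1.68 and 3.06 to 341, 359 and 336 FPKM (log2 fold change 7.10 ± 0.21, limma adjusted p = 1.5e-09). Wfdc12, of the same family, went from 0.0648, 0.448 and 0.945 to 124, 73.8 and 120.1 (log2 fold change 6.82 ± 0.31, limma adjusted p = 2.6e-08). The protease Prss27 went from 1.04, 1.38 and 1.0 to 74.3, 64.3 and 65.3 (log2 fold change 5.39 ± 0.22, limma adjusted p = 1.3e-08). Tmprss11b, a membrane protease listed near 0 before, rose from 0, 0.0119 and 0 to 8.87, 9.52 and 6.58. Hepsin, Hpn, was the exception and fell (-0.55 ± 0.18, limma adjusted p = 0.018). That call was lost without untreated replicate 3 and without MC903 replicate 1 or 2, at a limma adjusted p of 0.055, 0.058 and 0.054.

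Stefins, which inhibit lysosomal cysteine proteases, had a median among the highest of all lists. Of 12 tested stefins and cystatins 11 were higher and 1 lower. Their median was 6.48, or 7.26 with the 3 genes that had no read in untreated skin at their lower bounds. Stfa2 went from 0.427, 1.16 and 0.333 to 1337, 1257 and 1967 FPKM (log2 fold change 10.42 ± 0.23, limma adjusted p = 4.3e-10). BC117090 had no read in untreated libraries and 115, 115 and 129 FPKM after MC903, at least 304.1-fold higher. The mouse stefin A genes are near-identical copies, so single members are uncertain. Neutrophil genes rose in the same libraries (17 of 18 higher), and their part in the rise of stefins was not tested. Csta1 went from 32.6, 29.5 and 23.2 to 492, 414 and 678. Cst3, cystatin C of many cell types, fell from 986, 1022 and 1669.7 to 543, 507 and 568 (log2 fold change -1.14 ± 0.18, limma adjusted p = 0.00021). Of 17 clade B serpins, intracellular protease inhibitors, 9 were higher and 3 lower. Serpinb6c rose from 2.46, 4.10 and 4.02 to 33.9, 27.6 and 35.3 FPKM (log2 fold change 3.05 ± 0.16, limma adjusted p = 6.7e-08). Serpinb7, made by keratinocytes, fell from 39.6, 30.1 and 16.8 to 10.8, 15.6 and 13.8 (log2 fold change -1.01 ± 0.29, limma adjusted p = 0.0099). Serpinb6d, outside the list, had the largest fall among serpins, from 53.3, 95.4 and 30.9 to 2.49, 2.44 and 2.56 (log2 fold change -4.18 ± 0.30, limma adjusted p = 5.4e-07). Gasdermins form pores in membranes. Gsdmc went from 0.293, 0.660 and 0.0652 to 154, 130.2 and 123 (log2 fold change 7.40 ± 0.22, limma adjusted p = 1.7e-09). Gsdma went from 10.9, 8.58 and 5.31 to 95.3, 82.3 and 89 (log2 fold change 3.40 ± 0.22, limma adjusted p = 2.9e-07), and 5 of 6 tested gasdermins were higher with none lower, or 4 and 1 when scaled to TPM.

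Antimicrobial proteins moved in both directions, and the largest change of each sign was a defensin. Of 20 tested 11 were higher and 7 lower. Defb4 went from 0, 0.437 and 0 to 54.4, 60.4 and 55.9 FPKM (log2 fold change 6.54 ± 0.30, limma adjusted p = 2.6e-08). Defb14 went from 7.39, 12.6 and 4.61 to 257, 270.4 and 346 (log2 fold change 5.16 ± 0.28, limma adjusted p = 7.5e-08). Defb3 had no read in untreated skin and 29.4, 27.3 and 18.8 after MC903, at least 45.5-fold higher. The acute phase protein Saa3 went from 0.0386, 0.0190 and 0.0401 to 37.1, 22.1 and 45.2 FPKM. Chil3, a lectin of myeloid cells, rose from 0, 0.668 and 0.128 to 17.7, 24.3 and 22.6. Defb8 went the other way, from 18.6, 50.1 and 61.8 to 0.208, 0 and 0 (log2 fold change -6.12 ± 0.67, limma adjusted p = 1.3e-05), and Defb6 fell too (-0.76 ± 0.21), so the defensins did not share a direction. Lyz1, a lysozyme, fell from 32.7, 40.3 and 42.1 to 5.78, 7.35 and 11 (log2 fold change -2.22 ± 0.19, limma adjusted p = 1.6e-06). The secreted proteins Slurp1 and Slurp2, which regulate keratinocytes, also fell (-1.13 ± 0.30 and -1.74 ± 0.44). Among S100 proteins, small calcium-binding proteins, the calprotectin genes S100a8 and S100a9 rose from 4.20, 13.1 and 4.22 to 499.8, 554 and 455 and from 5.20, 15.5 and 3.11 to 482, 645 and 529 FPKM. S100b, a marker of Schwann cells and melanocytes, fell from 192, 145 and 203 to 17.4, 15.7 and 18.3 (log2 fold change -3.35 ± 0.14, limma adjusted p = 1.3e-08). S100a4, of fibroblasts and leukocytes, fell from 27.2, 22.8 and 33.8 to 3.99, 4.0 and 6.73 (log2 fold change -2.41 ± 0.18, limma adjusted p = 6.4e-07).

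Cytokines of the interleukin 1 family, which alert the tissue to damage, mostly rose. Il1b went from 0.316, 0.468 and 0.494 to 14.7, 58 and 40.4 FPKM (log2 fold change 5.17 ± 0.45, limma adjusted p = 2.3e-06). MC903 replicate 1 was the lowest of its group and still above every untreated library. Il1f9, the interleukin 36 gamma of mice, went from 15.2, 13.9 and 3.62 to 91.3, 82.9 and 74.8 (log2 fold change 3.09 ± 0.39, limma adjusted p = 4e-05). Its receptor Il1rl2 rose from 6.81, 7.36 and 5.61 to 23.2, 22.6 and 24.3 (log2 fold change 1.76 ± 0.10, limma adjusted p = 9.8e-08). Antagonists rose too. Il1rn, which blocks the interleukin 1 receptor, went from 4.88, 4.82 and 2.43 to 15.3, 14.8 and 15.2. Il1f5, which blocks the interleukin 36 receptor, went from 11.5, 7.99 and 4.42 to 64.3, 48.2 and 53 (log2 fold change 2.80 ± 0.27, limma adjusted p = 4.7e-06). Il1f10, interleukin 38, was the only tested member that fell, from 18.1, 13.5 and 7.78 to 2.44, 1.83 and 2.21 (log2 fold change -2.29 ± 0.32, limma adjusted p = 7.9e-05). In all 15 of 23 were higher and 1 lower, or 15 and 3 when scaled to TPM.

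The ligands Il19, Il24, Osm and Clcf1 rose, while 3 receptor chains that several cytokines share fell. Il19 went from 0.0437, 0.0863 and 0 to 26.2, 29 and 42.8 FPKM (log2 fold change 5.90 ± 0.43, limma adjusted p = 5.8e-07). Il24 went from 0.0363, 0.107 and 0 to 8.20, 17.8 and 11.9 (log2 fold change 4.52 ± 0.25, limma adjusted p = 8.1e-08). Both act on keratinocytes through the transcription factor STAT3. Il20, of the same family, was below the minimum, with 0.169, 0.167 and 0 FPKM untreated and 0.151, 0.104 and 0.0502 after MC903. Osm, oncostatin M, went from 0.354, 0.262 and 0.322 to 4.76, 9.69 and 5.43 (log2 fold change 3.07 ± 0.20, limma adjusted p = 2.8e-07). Clcf1, another ligand of gp130, rose from 2.02, 1.84 and 2.27 to 7.89, 11.1 and 9.34. Stat3 rose from 15.9, 16 and 16.4 to 39.6, 35.3 and 35.4 (log2 fold change 1.16 ± 0.09, limma adjusted p = 8.7e-07). Socs3, a feedback inhibitor that STAT3 induces, rose from 3.89, 3.46 and 4.32 to 39.6, 42.4 and 36.2 (log2 fold change 3.18 ± 0.23, limma adjusted p = 5.8e-07). Il6st, the signal chain gp130, fell from 39, 41.8 and 41.2 to 27, 26.9 and 22.1 (log2 fold change -0.68 ± 0.09, limma adjusted p = 4e-05). Lifr, its partner, fell from 9.83, 12.5 and 9.58 to 6.01, 6.88 and 6.25, and Il10rb from 7.57, 7.11 and 6.04 to 4.85, 4.26 and 4.16. Of 22 genes 16 were higher and 3 lower, or 13 and 5 when scaled to TPM.

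Of 17 tested genes of type 2 immunity 11 were higher and none lower as deposited, and 6 higher and 1 lower when scaled to TPM. Without untreated replicate 1 the number lower was 1. Tslp, the keratinocyte cytokine for which this model is known, went from 1.86, 1.71 and 0.969 to 224, 223 and 549 FPKM, highest in MC903 replicate 3. Il4ra, a receptor chain for interleukins 4 and 13, rose from 3.99, 4.77 and 6.01 to 47.7, 44.3 and 39.2. Its partners Il13ra1 and Il2rg rose as well, from 27.7, 26.6 and 19.6 to 60.3, 57.4 and 55 and from 1.68, 1.70 and 1.34 to 4.83, 7.19 and 5.29. Stat6, which carries their signal, rose (0.56 ± 0.08) but did not pass when scaled to TPM (0.09). Of the cytokines themselves, Il4 had 2.50, 1.37 and 1.45 FPKM untreated and 2.24, 2.76 and 2.72 after MC903 and did not pass (limma adjusted p = 0.063), and Il5 and Il13 were below the minimum. Il13 had 0.0834, 0.247 and 0 FPKM untreated and 0.546, 0.357 and 0.741 after MC903. Of 10 genes of the interleukin 17 axis 6 were higher and 3 lower (4 and 3 when scaled to TPM), with Il17a, Il17f, Il17c and Il23a below the minimum. The receptor Il17rc rose from 15.1, 12.6 and 16.7 to 89.7, 82.5 and 81.1 FPKM (log2 fold change 2.48 ± 0.10, limma adjusted p = 1.3e-08). Nfkbiz, a mediator of interleukin 17 signals, rose from 4.03, 5.90 and 2.74 to 18.6, 17.4 and 17.8, and Zc3h12a, an RNase that limits inflammation, from 5.89, 5.87 and 4.63 to 39.3, 29.3 and 32.2. Il17d, a cytokine of the same family, fell from 12.5, 7.01 and 17.5 to 3.52, 3.23 and 2.90 (log2 fold change -1.70 ± 0.27, limma adjusted p = 0.00019).

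Chemokines that attract myeloid cells were among the largest rises. Ccl4 went from 0.228, 0 and 0.158 to 18.8, 36.8 and 24.1 FPKM (log2 fold change 5.39 ± 0.25, limma adjusted p = 3e-08). Ccl3 went from 1.44, 0.647 and 0.137 to 30.7, 40.5 and 32.7 (log2 fold change 4.96 ± 0.31, limma adjusted p = 1.9e-07). Both attract monocytes. Ccl6, of macrophages, rose from 21.9, 29.4 and 31 to 128, 135 and 181. Ccr1, a receptor of these ligands, rose from 1.12, 1.42 and 0.941 to 6.56, 9.33 and 8.96 (log2 fold change 2.40 ± 0.17, limma adjusted p = 5.2e-07). Ccl20, which attracts dendritic cells and lymphocytes, rose from 0.141, 0.698 and 0.258 to 5.05, 3.03 and 7.33. In all 11 of 17 genes of the CC class were higher and none lower, with a median of 1.44. The number lower was 2 when scaled to TPM and 1 without untreated replicate 1. In the CXC class 10 of 17 were higher and 4 lower. Cxcl2, a neutrophil attractant, went from 0, 0.216 and 0.0506 to 11.6, 31.5 and 20.3 FPKM (log2 fold change 5.11 ± 0.38, limma adjusted p = 6.7e-07). Cxcl1, of the same kind, rose from 0.348, 0.238 and 0.390 to 3.28, 3.54 and 3.53. Cxcl12, which stroma makes at rest, fell from 28.9, 30.5 and 29.5 to 18.2, 18.9 and 19.9 (log2 fold change -0.63 ± 0.12, limma adjusted p = 0.00073), with its scavenger receptor Ackr3 (-1.06 ± 0.14). The platelet chemokine Pf4 (-0.64 ± 0.19) was lower too.

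Genes of neutrophils rose from a low base, while genes of resident macrophages and lymphocytes split. Of 18 tested neutrophil genes 17 were higher and none lower (median 2.08, or 2.49 with 3 genes at their lower bounds), and 1 was lower when scaled to TPM. A further 6 of the list, among them the granule protein genes Mpo, Elane, Ngp and Camp, were below the minimum. The summed level of the list after MC903 was 1091 to 1353 FPKM, most of it from S100a8 and S100a9, whose values are given above. The neutrophil markers described at the start, which do not include them, summed to 16.6 to 33.4 FPKM after MC903. Which cells made the RNA of S100a8 and S100a9 was not tested. Retnlg went from 0, 0 and 0.0882 to 4.64, 15.6 and 14.7 FPKM (log2 fold change 4.35 ± 0.35, limma adjusted p = 1.2e-06). Padi4, which modifies histones when neutrophils release their chromatin, went from 0.385, 0.318 and 0.173 to 9.72, 9.39 and 18.4 (log2 fold change 3.98 ± 0.23, limma adjusted p = 1.4e-07). Trem1, a receptor of activated neutrophils, had no read before and 0.838, 3.90 and 2.94 FPKM after MC903, at least 50.4-fold higher. MC903 replicate 1 was the lowest MC903 library for Retnlg and Trem1 and not for Padi4. Of 27 monocyte and macrophage genes 12 were higher and 9 lower as deposited, and 7 higher and 15 lower when scaled to TPM. The Fc receptor Fcgr4, of inflammatory monocytes, rose from 0.320, 0.434 and 0.375 to 5.66, 9.55 and 4.46 FPKM (log2 fold change 2.95 ± 0.32, limma adjusted p = 1.2e-05), as did Ly6c2 from 0.513, 0.271 and 0.153 to 2.55, 3.21 and 1.78. The receptor Csf1r, on which resident macrophages depend, fell from 30.4, 35.1 and 37.2 to 21.4, 21.6 and 20.1 (log2 fold change -0.69 ± 0.12, limma adjusted p = 0.00031). The lectin Mgl2 (-0.66 ± 0.12) fell while its neighbour Clec10a (1.20 ± 0.18) rose. Arg1, an arginase known from alternatively activated macrophages among other cells, had the largest rise of the list, from 1.31, 1.74 and 1.22 to 219, 180.4 and 115 (log2 fold change 6.44 ± 0.21, limma adjusted p = 3.3e-09). Retnla, another product of alternatively activated macrophages, fell from 47.1, 62.9 and 172 to 9.88, 19.4 and 45.2 (log2 fold change -1.93 ± 0.55, limma adjusted p = 0.0089).

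Among 25 genes of T, B and NK cells 11 were higher and 9 lower, or 5 and 9 when scaled to TPM. Without MC903 replicate 2 the number higher was 7. The genes that fell included those of the gamma delta T cells that live in mouse epidermis. Trdc, the constant region of the delta chain, fell from 5.81, 5.61 and 2.14 to 0.449, 0.764 and 0.416 FPKM (log2 fold change -2.18 ± 0.29, limma adjusted p = 5.8e-05). Tcrg-C1, of the gamma chain, fell from 8.37, 8.0 and 4.75 to 3.36, 3.53 and 2.45 (log2 fold change -1.04 ± 0.20, limma adjusted p = 0.0008). Trbc2, of the beta chain, rose from 9.15, 10.7 and 5.82 to 47, 34.8 and 42 (log2 fold change 2.24 ± 0.23, limma adjusted p = 6.4e-06). The shared T cell receptor parts did not all move alike, since of 4 genes of the CD3 chains 3 were lower and 1 was higher. Cd3e and Cd3g were among those that fell (-0.72 ± 0.21 and -0.70 ± 0.20), and Cd28 fell too (-1.60 ± 0.17). Foxp3, of regulatory T cells, was below the minimum, with 0.0504, 0.137 and 0.0787 FPKM untreated and 0.540, 0.570 and 0.418 after MC903. Ctla4, an inhibitory receptor, went from 0.108, 0.0638 and 0.292 to 2.18, 3.19 and 2.02 (log2 fold change 2.17 ± 0.18, limma adjusted p = 1.6e-06), and Icos, a costimulatory receptor, from 0.806, 0.665 and 0.290 to 3.17, 2.56 and 2.50. Gzmb, granzyme B, rose from 0.350, 0.587 and 0.218 to 4.21, 4.58 and 2.16. Prf1, perforin, which works with it in killer cells, fell from 1.26, 1.30 and 0.830 to 0.440, 0.452 and 0.184 (log2 fold change -0.93 ± 0.18, limma adjusted p = 0.00085). Of 15 dendritic and Langerhans cell genes 5 were higher and 6 lower, or 3 and 7 when scaled to TPM, and the median turned from 0.03 to -0.29. The Langerhans cell lectin Cd207 fell from 7.0, 6.97 and 6.15 to 3.93, 2.55 and 3.44 FPKM (log2 fold change -0.94 ± 0.13, limma adjusted p = 6.3e-05). Cd209a, of dermal dendritic cells, fell from 13.6, 11.9 and 12.8 to 3.36, 5.28 and 5.83 (log2 fold change -1.35 ± 0.19, limma adjusted p = 9e-05). Fscn1, of maturing dendritic cells and of migrating epithelium, rose from 9.16, 8.64 and 12.2 to 51.2, 52.8 and 59.6.

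Most genes for presenting antigen on MHC class I rose, while genes for class II fell or did not pass. H2-K1, a class I heavy chain, went from 104, 117 and 121 to 463, 399.9 and 361 FPKM (log2 fold change 1.83 ± 0.13, limma adjusted p = 4.8e-07). The peptide transporter Tap1 went from 4.47, 5.16 and 4.64 to 26.4, 27.1 and 15.1 (log2 fold change 2.11 ± 0.20, limma adjusted p = 3.9e-06). Nlrc5, the activator of class I genes, went from 1.69, 2.18 and 0.948 to 10.2, 11.5 and 5.85 (log2 fold change 2.19 ± 0.27, limma adjusted p = 3.1e-05). The class II chain H2-Aa fell from 189, 160.1 and 166 to 113, 112 and 104 (log2 fold change -0.64 ± 0.13, limma adjusted p = 0.00097). The invariant chain Cd74 fell from 487, 397 and 492 to 277, 279 and 237 (log2 fold change -0.79 ± 0.13, limma adjusted p = 0.00026). Of 18 tested genes 9 were higher, all of the class I pathway, and 4 lower, all of class II. When scaled to TPM 8 were higher and 7 lower, and without MC903 replicate 3 the number lower was 2.

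Most interferon response genes rose, by an amount that differed between libraries. Of 28 tested 23 were higher and 2 lower, with a median of 1.20, and when scaled to TPM 18 were higher and 4 lower. Isg15, an antiviral ubiquitin-like protein, went from 1.33, 2.03 and 2.35 to 32.3, 37.9 and 9.22 FPKM (log2 fold change 3.29 ± 0.45, limma adjusted p = 7e-05). Gbp2, a GTPase induced by interferon gamma, went from 5.69, 7.45 and 7.56 to 77.3, 102 and 16.5 (log2 fold change 2.81 ± 0.54, limma adjusted p = 0.0008). The chemokine Cxcl10 went from 0.379, 0.705 and 0.348 to 23.2, 28 and 3.70 (log2 fold change 3.87 ± 0.65, limma adjusted p = 0.0003). MC903 replicate 3 was the lowest MC903 library for 26 of the 28 genes, against 35.5% of all genes. The median difference from untreated skin was 1.26, 1.62 and 0.65 on the log2 scale in MC903 replicates 1, 2 and 3. The summed share of reads of the 28 genes was 0.0871, 0.112 and 0.0514% in these libraries and 0.0360, 0.0451 and 0.0531% in the untreated ones, so replicate 3 lay within the untreated range. Irf7, a transcription factor that amplifies the response, rose from 1.24, 1.52 and 1.91 to 6.94, 9.64 and 5.19, and Irf9, which carries STAT proteins to DNA, from 3.80, 4.47 and 4.37 to 13.4, 14.2 and 8.97. Ifit2, which restrains viral RNA, fell (-1.17 ± 0.19). Ifit3, of the same family, was lower (-0.75 ± 0.27), but that call was lost without untreated replicate 3, MC903 replicate 1 or MC903 replicate 3 (limma adjusted p = 0.11, 0.057 and 0.12). Ifng, the gene of interferon gamma, was named after its values were seen and was below the minimum, with no read in untreated libraries and 0.508, 0.760 and 0.184 FPKM after MC903.

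**Figure D4:**
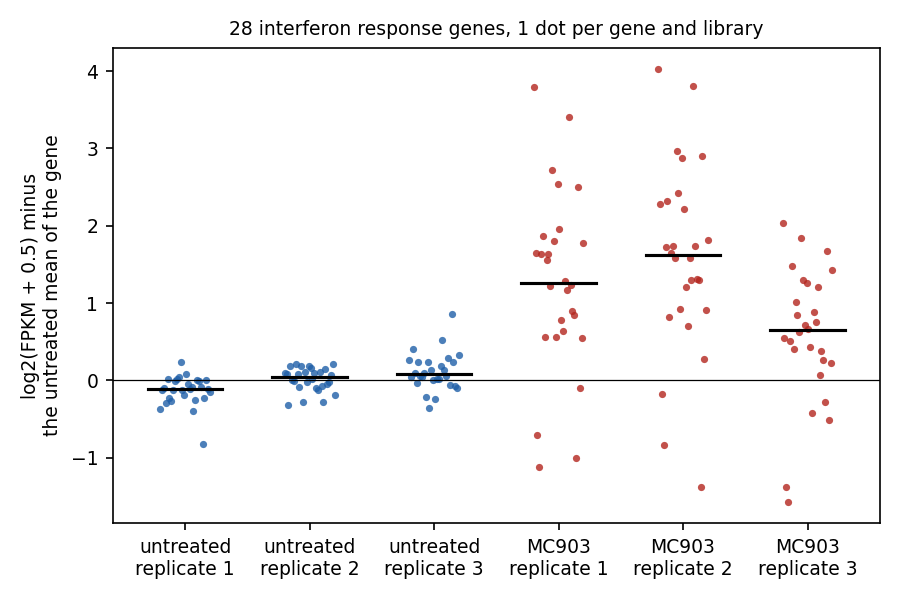
Difference of log2(FPKM + 0.5) from the untreated mean of the gene for 28 interferon response genes (dots) in each of 6 wild type libraries; black bars are medians over the genes. The medians of the MC903 libraries are 1.26, 1.62 and 0.65, and those of the untreated libraries -0.11, 0.05 and 0.08.

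Interferons act through STAT proteins, which bind a short palindrome, and the promoters of these genes were searched for it. Windows ran from 250 bases before to 50 bases after a RefSeq transcription start (build GRCm38.p6), and the motif searched was TTC followed by any 3 bases and GAA, which reads the same on both strands. Of 26 windows of 21 interferon genes 8 held it (30.8%), against 8.3% of all 32851 windows and 6.9% of those of tested genes. The promoter of Gbp7, a guanylate-binding protein that went from 2.59, 3.13 and 2.64 to 5.39, 7.59 and 3.44 FPKM (log2 fold change 0.81 ± 0.22, limma adjusted p = 0.0065), held 2 matches and is shown for that reason, like Gbp5 and Irf8 among the others. When scaled to TPM Gbp7 did not pass (0.38). The 250 bases before its start lie at chr3:142530086-142530335 on the plus strand and are written 5′ to 3′, with the matches in capitals:
Gbp7: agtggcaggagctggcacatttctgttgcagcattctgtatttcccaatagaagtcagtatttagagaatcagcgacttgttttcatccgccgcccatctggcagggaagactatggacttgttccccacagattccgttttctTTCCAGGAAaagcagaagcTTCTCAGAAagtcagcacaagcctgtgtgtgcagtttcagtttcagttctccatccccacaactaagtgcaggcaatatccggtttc
Among the 21 windows of gp130 and interleukin 20 family genes, which also signal through STAT proteins, 3 (14.3%) held the motif, those of Il19, Socs3 and Il31ra. A match is a description of the letters and not a shown binding site.

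Most complement genes did not pass or fell, and genes of prostaglandin synthesis moved in both directions. Of 17 complement genes 2 were higher and 6 lower, or 1 and 12 when scaled to TPM, and only 1 was higher without untreated replicate 1 or 2 or without MC903 replicate 2 or 3. C4b fell from 118, 138 and 173 to 67.5, 67.8 and 69.5 FPKM (log2 fold change -1.05 ± 0.13, limma adjusted p = 3e-05). Cd59a, which protects cells from the lytic complex, fell from 26.6, 28.7 and 30.8 to 7.82, 8.83 and 6.71 (log2 fold change -1.82 ± 0.12, limma adjusted p = 2.4e-07). Properdin, Cfp, which stabilises the alternative pathway and comes from myeloid cells, rose from 10.8, 14.8 and 18 to 31.6, 30.8 and 40.4 (log2 fold change 1.23 ± 0.17, limma adjusted p = 7.9e-05). Prostaglandins and leukotrienes are lipid mediators made from arachidonic acid. Ptgs2, the inducible cyclooxygenase (ENSMUSG00000032487, chromosome 1, 150100031 to 150108227), went from 0.176, 0.227 and 0.171 to 37.4, 67.7 and 44.9 FPKM (log2 fold change 6.15 ± 0.19, limma adjusted p = 2.6e-09). Ptges, which turns its product into prostaglandin E2, went from 11.7, 11.8 and 11.4 to 121, 111 and 123 (log2 fold change 3.29 ± 0.11, limma adjusted p = 2.9e-09). The phospholipase Pla2g4f, which can release the acid, rose from 5.44, 5.28 and 3.84 to 113, 90.3 and 106, and Pla2g4e from 1.91, 2.10 and 1.77 to 25.6, 31.3 and 23.4. The leukotriene B4 receptor Ltb4r1 rose from 6.42, 5.16 and 5.29 to 63.3, 63.7 and 55 (log2 fold change 3.32 ± 0.13, limma adjusted p = 9.7e-09). The prostacyclin synthase Ptgis fell from 29.9, 24.4 and 55.2 to 4.80, 5.70 and 6.36 (log2 fold change -2.51 ± 0.26, limma adjusted p = 8.1e-06). The prostaglandin receptors Ptgfr and Ptger3 fell from 13.5, 11.5 and 12.4 to 2.10, 2.28 and 2.41 and from 5.44, 6.90 and 5.68 to 2.10, 2.40 and 1.84. Hpgd, which inactivates prostaglandins, fell from 24.4, 29.1 and 17.5 to 8.35, 10.7 and 9.94 (log2 fold change -1.23 ± 0.20, limma adjusted p = 0.00026). In all 13 of 27 were higher and 8 lower, and 10 and 10 when scaled to TPM.

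Several ligands of the epidermal growth factor receptor rose while the receptor did not pass. Epgn, epigen, went from 0.278, 0.659 and 0.260 to 28.4, 42.2 and 40.8 FPKM (log2 fold change 5.39 ± 0.28, limma adjusted p = 6.6e-08). Areg, amphiregulin, went from 0.703, 0.857 and 0 to 29, 41.9 and 42.6 (log2 fold change 5.34 ± 0.37, limma adjusted p = 3.8e-07). Hbegf, which is shed from the cell surface, went from 2.92, 4.26 and 4.34 to 19.2, 27.7 and 18.1 (log2 fold change 2.35 ± 0.20, limma adjusted p = 1.6e-06). Egfr had 8.06, 8.68 and 7.75 untreated and 8.68, 9.49 and 9.53 after MC903 (limma adjusted p = 0.089), and its log2 fold change was 0.17 as deposited and -0.28 when scaled to TPM. Its partners Erbb2 and Erbb3 rose from 11.8, 11.1 and 10.7 to 25, 19.7 and 19.9 and from 12.4, 11.2 and 7.43 to 31.7, 29.2 and 28.3. Lrig1, which lowers receptor levels, fell from 13.2, 14.1 and 14.8 to 9.13, 7.80 and 6.58 (log2 fold change -0.81 ± 0.10, limma adjusted p = 3.3e-05). In all 9 of 15 tested members of the family were higher and 2 lower, or 7 and 4 when scaled to TPM.

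Genes of dividing cells rose together. Of 42 cell cycle genes 40 were higher and none lower (median 1.55), and when scaled to TPM 34 were higher and 1 lower. E2f7, a factor of the S phase, went from 0.279, 0.341 and 0.0697 to 6.56, 7.37 and 8.19 FPKM (log2 fold change 3.45 ± 0.18, limma adjusted p = 6.8e-08). Birc5, survivin, which acts in mitosis, went from 1.67, 2.16 and 1.05 to 13.4, 12.6 and 16.8 (log2 fold change 2.82 ± 0.19, limma adjusted p = 3.5e-07). The ribonucleotide reductase subunit Rrm2 went from 4.77, 5.49 and 3.74 to 19.2, 20.9 and 20.9 (log2 fold change 2.03 ± 0.13, limma adjusted p = 2.3e-07). Untreated replicate 3 was the lowest library for each, and the groups did not overlap. Genes that control entry into the cycle were not uniform. Cdk6 rose from 2.43, 2.88 and 1.59 to 15, 15.6 and 15.5 (log2 fold change 2.53 ± 0.16, limma adjusted p = 2.1e-07), and Cdk4 from 16.9, 16.5 and 20.2 to 47, 35.6 and 43.8. Their partner Ccnd2 fell from 28.8, 21.5 and 19.8 to 6.04, 6.26 and 5.80 (log2 fold change -1.85 ± 0.12, limma adjusted p = 2e-07), and Ccnd1 fell as well (-0.44 ± 0.11). The inhibitors Cdkn1a (0.76 ± 0.10) and Cdkn2b (0.89 ± 0.18) rose, Cdkn2b without passing when scaled to TPM (0.44). Cdkn1b (-0.45 ± 0.08) and Cdkn2c (-0.77 ± 0.11) fell.

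Promoters of cell cycle genes hold motifs of known regulators, E2F factors for DNA replication genes and the CHR element for genes of mitosis, so 4 members with such matches are shown. The E2F motif was searched as TTCGCGC or TTGGCGC, the CHR as TTTGAA and the CCAAT box as CCAAT, on both strands, and overlapping matches were each counted. Of 36 windows of 34 cell cycle genes 11 held the E2F motif (30.6%, against 3.9% of all windows and 6.3% of those of tested genes). The CHR was in 16 (44.4%, against 17.9% and 12.7%) and a CCAAT box in 29 (80.6%, against 37.4% and 36.9%). Mcm5 and Mcm6 are subunits of the replicative helicase, with Mcm6 at 9.90 ± 1.30 FPKM untreated (SD) and 18.3, 15.2 and 13.5 after MC903 (log2 fold change 0.64 ± 0.12, limma adjusted p = 0.00079), which did not pass when scaled to TPM (0.17). Cdk1 is the kinase that starts mitosis, and Top2a untangles DNA, at 4.22, 5.39 and 2.25 untreated and 19.4, 17.3 and 18.1 after MC903 (log2 fold change 2.15 ± 0.22, limma adjusted p = 7.6e-06). The printed 250 bases before each start are chr1:128359706-128359955 (minus strand) for Mcm6, chr8:75109259-75109508 (plus) for Mcm5, chr10:69352913-69353162 (minus) for Cdk1 and chr11:99024190-99024439 (minus) for Top2a. They are written 5′ to 3′ on the strand of the gene, with E2F matches in capitals for the first pair and CHR matches for the second pair:
Mcm6: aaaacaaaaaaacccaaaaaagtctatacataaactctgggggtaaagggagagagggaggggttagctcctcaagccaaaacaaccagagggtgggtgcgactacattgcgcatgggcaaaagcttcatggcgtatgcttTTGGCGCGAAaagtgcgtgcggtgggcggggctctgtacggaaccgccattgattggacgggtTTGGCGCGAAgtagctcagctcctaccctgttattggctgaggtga
Mcm5: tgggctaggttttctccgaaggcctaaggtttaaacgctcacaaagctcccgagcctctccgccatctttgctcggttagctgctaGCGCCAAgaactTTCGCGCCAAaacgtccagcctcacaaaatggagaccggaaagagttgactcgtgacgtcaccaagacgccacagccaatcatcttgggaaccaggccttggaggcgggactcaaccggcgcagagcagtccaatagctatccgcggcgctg
Cdk1: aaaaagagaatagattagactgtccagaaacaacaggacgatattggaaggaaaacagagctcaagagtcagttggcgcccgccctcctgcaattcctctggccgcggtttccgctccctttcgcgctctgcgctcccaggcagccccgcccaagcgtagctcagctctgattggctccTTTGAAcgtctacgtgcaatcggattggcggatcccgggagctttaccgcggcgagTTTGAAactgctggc
Top2a: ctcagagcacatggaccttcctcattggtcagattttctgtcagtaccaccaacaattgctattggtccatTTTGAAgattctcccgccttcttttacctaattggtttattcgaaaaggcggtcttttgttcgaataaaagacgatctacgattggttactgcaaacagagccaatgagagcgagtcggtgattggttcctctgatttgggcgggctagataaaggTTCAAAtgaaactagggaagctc
In these bases Mcm6 held 4 E2F matches in 2 overlapping pairs and Mcm5 held 3, and their log2 fold changes were 0.64 and 2.55. Cdk1 and Top2a each held 2 CHR matches, Cdk1 beside 2 E2F matches that are not in capitals, and had log2 fold changes of 2.21 and 2.15. The AP-1 motif, TGACTCA or TGAGTCA, was found in none of 12 kallikrein and 6 Lce3 windows, against 5.2% of all windows and 4.4% of those of tested genes, and the sterol motif CACCCCA in 3 of 20 windows of cholesterol genes (15%, against 7.6% and 8.4%). These shares are descriptions, and no match in these windows says nothing about sites elsewhere.

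Transcription factors of keratinocytes mostly rose. Of 40 factors 29 were higher and 3 lower (median 1.19; 22 and 6 when scaled to TPM), with 5 lower without MC903 replicate 2. Elf3, an epithelial Ets factor of the upper layers, went from 0.725, 0.649 and 0.896 to 27.7, 21.9 and 27.9 FPKM (log2 fold change 4.39 ± 0.15, limma adjusted p = 3.9e-09). Its relative Ehf went from 5.47, 5.35 and 1.87 to 27.5, 27 and 31.2 (log2 fold change 2.74 ± 0.30, limma adjusted p = 1.2e-05). Cebpb, a factor of differentiation and inflammation, went from 35.7, 30.8 and 56.2 to 166, 177 and 189 (log2 fold change 2.15 ± 0.18, limma adjusted p = 1.5e-06). Hopx, a cofactor of differentiating cells, rose from 19.3, 17 and 16.4 to 53.8, 60.0 and 65.8. Sox9, a factor of hair follicle stem cells among other cell types, fell from 49.6, 31.8 and 41.3 to 9.77, 8.27 and 7.95 (log2 fold change -2.16 ± 0.16, limma adjusted p = 7.1e-07). Sox2, of the hair papilla and sensory cells, fell from 0.831, 1.52 and 1.02 to 0.320, 0.149 and 0.203 (log2 fold change -1.15 ± 0.23, limma adjusted p = 0.00091). Among immediate early genes 11 of 19 were higher and 4 lower, or 7 and 6 when scaled to TPM. Junb rose from 21.2, 13.7 and 25.4 to 199, 209.9 and 197 (log2 fold change 3.34 ± 0.22, limma adjusted p = 2.7e-07) and Fos from 4.72, 3.69 and 6.96 to 16.7, 20.1 and 20.6. Nr4a1 fell from 16.7, 15.2 and 21 to 3.71, 8.87 and 4.82 (log2 fold change -1.60 ± 0.28, limma adjusted p = 0.00044). Klf2, which endothelium makes under flow, fell from 27.9, 26.2 and 49.6 to 16.3, 16.5 and 17 (log2 fold change -0.97 ± 0.20, limma adjusted p = 0.0014).

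Genes of growth and protein synthesis mostly rose. All 27 ribosome biogenesis genes were higher (median 1.16; 24 higher and 0 lower when scaled to TPM), with Nop56, part of the complex that methylates ribosomal RNA, at 8.99, 9.39 and 9.01 untreated and 37.1, 33.9 and 38.3 after MC903 (log2 fold change 1.94 ± 0.08, limma adjusted p = 1.9e-08). Of 77 ribosomal protein genes 73 were higher and 0 lower (median 0.93), and 48 and 1 when scaled to TPM. Ribosomal proteins have many pseudogene copies, so single members are uncertain. Rpl10a went from 234, 196 and 260.1 to 544, 482 and 610.0 FPKM. Polyamines support growth. Smox, spermine oxidase, rose from 3.61, 3.55 and 5.41 to 36.2, 35.9 and 40.1 (log2 fold change 3.03 ± 0.14, limma adjusted p = 3e-08). Srm, spermidine synthase, rose from 19.9, 17.5 and 24.4 to 63.6, 58.2 and 57.7. Ass1, which serves to make arginine, rose from 5.75, 6.24 and 7.88 to 66.2, 55.6 and 54 (log2 fold change 3.06 ± 0.18, limma adjusted p = 1.4e-07). The transporter Slc7a2 fell (-1.38 ± 0.12). Most targets of the amino acid response rose as well. Mthfd2, of mitochondrial folate metabolism, went from 1.57, 1.95 and 1.98 to 12.6, 13.3 and 16.4 (log2 fold change 2.64 ± 0.14, limma adjusted p = 8.4e-08). Asns, asparagine synthetase, rose from 11.1, 10.7 and 9.0 to 40.2, 43 and 51.2, and the amino acid transporter Slc7a5 from 8.85, 8.87 and 9.72 to 50.2, 49.3 and 46.8. In that list 19 of 24 were higher and none lower as deposited, or 13 and 4 when scaled to TPM.

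Metabolic genes went in both directions. Of 27 glycolysis genes 18 were higher and 6 lower (12 and 7 when scaled to TPM), and without MC903 replicate 1 the number lower was 3. Eno1, the widespread enolase, rose from 43.2, 42.6 and 55.6 to 204, 164 and 158 FPKM (log2 fold change 1.89 ± 0.14, limma adjusted p = 5.4e-07). Pgam1 rose as well (1.55 ± 0.15). Ldhb, the lactate dehydrogenase subunit of oxidative tissue, fell from 89.1, 88.2 and 94.3 to 27.6, 29.8 and 26.8 (log2 fold change -1.67 ± 0.08, limma adjusted p = 4.4e-08). Gapdh was listed at 0.900, 0.432 and 0.886 FPKM untreated and 68.1, 4.17 and 34.4 after MC903. It has many near-identical copies in the genome, so its level here is uncertain. Hif1a, the hypoxia factor, rose from 21.9, 21.1 and 17.9 to 74.7, 86 and 107 (log2 fold change 2.10 ± 0.13, limma adjusted p = 2.1e-07). Egln3, which it induces, rose from 18.6, 12.7 and 19.3 to 158, 110.2 and 108 (log2 fold change 2.86 ± 0.19, limma adjusted p = 3.6e-07). Of 13 hypoxia genes 8 were higher and 3 lower, or 5 and 4 when scaled to TPM, and only 1 was lower without untreated replicate 3, MC903 replicate 2 or MC903 replicate 3. In the redox list 13 of 24 were higher and 7 lower (9 and 10 when scaled to TPM). Gsta4, which detoxifies lipid peroxides, rose from 11.7, 11.7 and 10.9 to 172, 164 and 136 (log2 fold change 3.72 ± 0.13, limma adjusted p = 6.3e-09), and Hmox1, which breaks down heme, from 23.9, 25.6 and 26.5 to 86.1, 89.5 and 99.2. Cat, catalase, fell from 95.1, 118 and 92.1 to 25.9, 30.5 and 22.9 (log2 fold change -1.92 ± 0.12, limma adjusted p = 2e-07).

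Retinoid genes, which handle vitamin A and its active acid, also went both ways. Lrat, which esterifies retinol for storage, went from 0.470, 0.556 and 0.430 to 25.4, 20.3 and 32.4 FPKM (log2 fold change 4.73 ± 0.17, limma adjusted p = 6.3e-09). Crabp2, which carries retinoic acid to its receptors, went from 20.8, 16 and 16.5 to 262, 204 and 302 (log2 fold change 3.80 ± 0.17, limma adjusted p = 2.1e-08). Aldh1a3, which makes retinoic acid, went from 0.794, 1.19 and 0.589 to 10.2, 11.6 and 7.44 (log2 fold change 2.92 ± 0.19, limma adjusted p = 2.8e-07). Rbp4, the carrier of retinol in blood and a product of fat, fell from 27.3, 28.4 and 35.8 to 5.62, 4.50 and 4.18 (log2 fold change -2.56 ± 0.14, limma adjusted p = 1e-07). Aldh1a1, another enzyme that makes retinoic acid, fell from 13.4, 18.9 and 30.5 to 8.19, 8.56 and 9.39 (log2 fold change -1.14 ± 0.22, limma adjusted p = 0.00079). Of 18 genes 7 were higher and 5 lower, or 5 and 9 when scaled to TPM.

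Among calcium genes 7 of 22 were higher and 10 lower, or 3 and 11 when scaled to TPM. Calm4, a calmodulin-like protein of keratinocytes, rose from 800.0, 579 and 549 to 4576, 4099.7 and 3818 FPKM (log2 fold change 2.71 ± 0.19, limma adjusted p = 4e-07). The channel Trpv3, which warmth opens in keratinocytes, rose from 2.06, 2.71 and 1.13 to 16.1, 17 and 19 (2.91 ± 0.22). The store sensor Stim1 fell from 18.7, 18.3 and 23.1 to 10.6, 11.8 and 9.31 (log2 fold change -0.89 ± 0.11, limma adjusted p = 2.3e-05). F2r, the thrombin receptor, fell from 11.6, 11.8 and 11.6 to 3.93, 4.20 and 3.11 (log2 fold change -1.53 ± 0.10, limma adjusted p = 3.6e-07). Factors that act on nerve endings also went both ways. Artn, artemin, went from 0.0627, 0.227 and 0.261 to 1.59, 1.82 and 1.91 FPKM (log2 fold change 1.74 ± 0.15, limma adjusted p = 2.2e-06). Nrtn, neurturin, a relative of artemin, went from 26.5, 12.4 and 22.3 to 99.7, 98.7 and 106 (log2 fold change 2.36 ± 0.23, limma adjusted p = 4.9e-06). The neurotrophin receptors Ngfr and Ntrk2 fell. Ngfr went from 6.24, 6.78 and 4.89 to 0.868, 0.785 and 1.0 (log2 fold change -2.21 ± 0.18, limma adjusted p = 1.1e-06) and Ntrk2 from 14, 11.6 and 12.4 to 2.40, 2.72 and 2.58 (log2 fold change -2.10 ± 0.09, limma adjusted p = 1.9e-08). Penk, the precursor of enkephalins, fell from 158, 163 and 270.4 to 32.1, 26.2 and 30.7 (log2 fold change -2.67 ± 0.18, limma adjusted p = 2.8e-07).

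Of 20 Schwann cell genes 18 were lower and 1 higher. Prx, periaxin, of myelin sheaths (ENSMUSG00000053198, chromosome 7, 27499324 to 27520214), fell from 13.1, 14 and 14.1 to 2.31, 2.0 and 1.64 FPKM (log2 fold change -2.53 ± 0.11, limma adjusted p = 2.2e-08). Mbp, myelin basic protein, fell from 26.8, 26.8 and 29.3 to 9.54, 8.64 and 7.92 (log2 fold change -1.62 ± 0.08, limma adjusted p = 4.1e-08). Pou3f1, a factor of myelinating Schwann cells that keratinocytes also make, rose from 12.3, 7.05 and 9.52 to 42.5, 30.9 and 35.8 (log2 fold change 1.89 ± 0.18, limma adjusted p = 4.8e-06). The untreated libraries did not differ much for these genes, and their share of reads fell to 0.30, 0.29 and 0.29 of the untreated mean. Genes of pigment cells, which share the neural crest origin, showed little change. Of 7 tested melanocyte genes 1 was higher and 2 lower, or 0 and 3 when scaled to TPM, and the share of reads of the list was 0.84, 1.03 and 0.85 of the untreated mean. Dct, a pigment enzyme, had 2.28, 2.76 and 2.60 FPKM untreated and 2.84, 2.56 and 1.95 after MC903 (limma adjusted p = 0.72).

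RNA of dermal matrix and of most dermal cells made up a smaller part of the libraries after MC903. The share of reads that fell on collagens was 0.30, 0.38 and 0.30 of the untreated mean in the MC903 libraries, on proteoglycans and elastic fibre genes 0.22, 0.27 and 0.25, and on fibroblast identity genes 0.35, 0.33 and 0.35. Endothelial genes kept a larger share, 0.54, 0.59 and 0.54. In untreated replicate 3 the shares of collagens and fibroblast genes were the highest of the untreated libraries, at 1.34 and 1.28. Of 21 collagens 17 were lower and 2 higher, or 19 and 0 when scaled to TPM. Col8a1, a collagen of vessels and stroma, fell from 123, 118 and 220.3 to 12.1, 20.9 and 17.8 FPKM (log2 fold change -3.11 ± 0.25, limma adjusted p = 1.2e-06). Col6a1, of the microfibrils around cells, fell from 153, 106 and 221 to 42.5, 44.9 and 40.2 (log2 fold change -1.84 ± 0.20, limma adjusted p = 1.4e-05). Col7a1, the anchoring fibril collagen that keratinocytes also make, is counted with the basal genes and rose, from 3.58, 3.02 and 3.17 to 9.90, 6.44 and 6.36 (log2 fold change 1.08 ± 0.16, limma adjusted p = 0.00013). Several small proteoglycans that bind collagen fell. Omd, osteomodulin, went from 142, 164 and 144 to 12.2, 13.8 and 20.7 (log2 fold change -3.26 ± 0.18, limma adjusted p = 8.2e-08) and Aspn, asporin, from 166, 189.6 and 187 to 18.5, 26.5 and 23.4 (log2 fold change -2.97 ± 0.15, limma adjusted p = 4e-08). Bgn, biglycan, went from 301, 285 and 403 to 59.8, 70.6 and 61.4 (log2 fold change -2.34 ± 0.14, limma adjusted p = 1.4e-07). Fbln1 was the exception, going from 7.18, 5.73 and 15.3 to 20.8, 16.9 and 16.3 (log2 fold change 1.01 ± 0.26, limma adjusted p = 0.0054), which did not pass when scaled to TPM (0.55). Fibroblast genes fell unevenly, with Ebf1 at -2.10 ± 0.16, Fap at -1.63 ± 0.16 and Pdgfra at -0.60 ± 0.15, and Dpp4, a marker of upper dermal fibroblasts that other cells share, rose (1.27 ± 0.11). Of 15 fibroblast identity genes 10 were lower and 1 higher, and 3 were higher without untreated replicate 3.

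**Figure D5:**
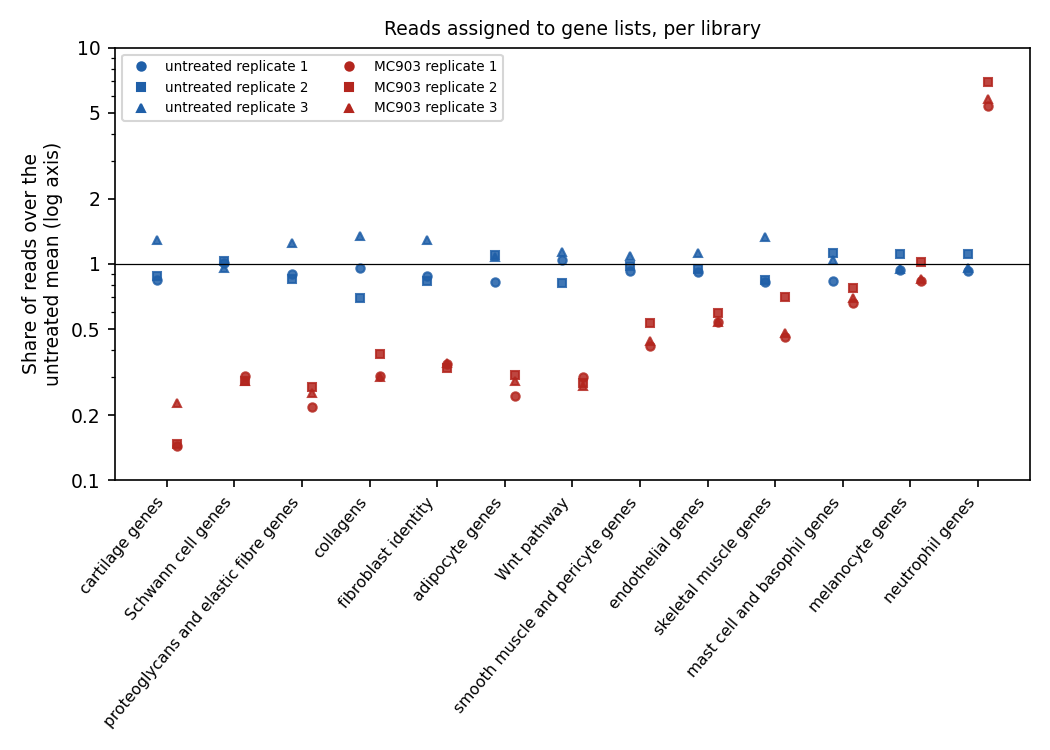
Share of the library's reads that fell on each gene list, divided by the mean of the 3 untreated libraries, on a log axis; blue marks untreated and red MC903 libraries, with a symbol for each replicate. Cartilage genes fall to 0.14 to 0.23 of the untreated mean, melanocyte genes stay between 0.84 and 1.03, and neutrophil genes rise to between 5.39 and 6.91. The neutrophil list includes S100a8 and S100a9.

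Some enzymes that break down matrix rose, and 3 of 4 tissue inhibitors of metalloproteinases fell. Mmp13, a collagenase, went from 0.0752, 0.482 and 0.117 to 45, 51.7 and 92.8 FPKM (log2 fold change 6.42 ± 0.37, limma adjusted p = 1.1e-07). Mmp10, a stromelysin, went from 0.350, 0.432 and 0.0304 to 4.51, 10.2 and 11.3 (log2 fold change 3.52 ± 0.31, limma adjusted p = 2.4e-06). Timp3, which is bound in the matrix, fell from 122, 159.7 and 173 to 11.8, 15.8 and 11.6 (log2 fold change -3.48 ± 0.15, limma adjusted p = 1.8e-08), and Timp2 from 336, 363 and 518 to 100.1, 106 and 98.9 (log2 fold change -1.97 ± 0.15, limma adjusted p = 7.5e-07). Timp4 fell too (-1.58 ± 0.11). Timp1, an inhibitor that inflammation induces, rose from 12.6, 8.77 and 13.3 to 37.1, 59.1 and 79.5 (log2 fold change 2.25 ± 0.23, limma adjusted p = 6.9e-06). In all 11 of 23 were higher and 4 lower, or 10 and 7 when scaled to TPM. Of 20 genes of wound matrix and plasminogen 9 were higher and 8 lower, or 7 and 11 when scaled to TPM. Hyaluronan synthases went apart. Has3, of keratinocytes, rose from 0.528, 0.661 and 0.533 to 10.6, 11.3 and 9.61 (log2 fold change 3.35 ± 0.12, limma adjusted p = 5.1e-09), and Has2, of fibroblasts, fell from 2.92, 3.37 and 2.41 to 1.07, 1.60 and 1.59 (log2 fold change -0.83 ± 0.17, limma adjusted p = 0.0014). The hyaluronan receptor Cd44 rose from 14.4, 18.3 and 11.6 to 68.8, 73.4 and 74.1 (log2 fold change 2.27 ± 0.14, limma adjusted p = 2.2e-07). Tnc, tenascin C, of healing wounds, rose from 7.09, 7.09 and 7.23 to 25.5, 25.7 and 26.4 (log2 fold change 1.79 ± 0.10, limma adjusted p = 7.2e-08). Ctgf, a matricellular protein, fell from 289.9, 347 and 469.8 to 57.1, 85.9 and 78.1 (log2 fold change -2.31 ± 0.19, limma adjusted p = 1.3e-06). Postn, periostin, which fibroblasts lay down, fell from 162, 99.9 and 78.3 to 28.2, 30.0 and 27.2 (log2 fold change -1.91 ± 0.21, limma adjusted p = 1.1e-05).

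In the Wnt pathway, which carries signals between epidermis, follicle and dermis, several secreted antagonists fell. Wif1, which binds Wnt proteins (ENSMUSG00000020218, chromosome 10, 121033960 to 121100650), fell from 611, 489 and 706 to 41.3, 38.1 and 39.6 FPKM (log2 fold change -3.89 ± 0.14, limma adjusted p = 6.9e-09). Frzb fell from 175, 90.9 and 136 to 13.2, 17 and 15.3 (log2 fold change -3.06 ± 0.21, limma adjusted p = 4.4e-07). Of its relatives Sfrp2 fell from 38.1, 22.4 and 64.7 to 3.25, 4.86 and 5.28 and Sfrp5 from 19.5, 21.6 and 30.4 to 3.40, 2.95 and 2.76, but Sfrp1 rose (1.08 ± 0.10). Ligands were split. Wnt10a rose from 5.72, 7.05 and 5.34 to 31.1, 27.6 and 31.5 (log2 fold change 2.23 ± 0.14, limma adjusted p = 1.7e-07) and Wnt4 from 6.94, 7.07 and 8.34 to 45.8, 34 and 29.1 (log2 fold change 2.19 ± 0.18, limma adjusted p = 1.4e-06). Wnt10b fell (-1.46 ± 0.21), and so did Axin2, a common target of the pathway (-0.67 ± 0.12). In all 6 of 24 were higher and 13 lower, or 5 and 15 when scaled to TPM. Of 26 other growth signals 6 were higher and 16 lower, or 2 and 20 when scaled to TPM. Tgfb2 fell from 18.7, 10.9 and 18.9 to 2.73, 2.45 and 1.69 (log2 fold change -2.56 ± 0.21, limma adjusted p = 1.5e-06), and Nog, the BMP antagonist noggin, from 21.6, 8.57 and 20.2 to 2.50, 2.79 and 3.23 (log2 fold change -2.27 ± 0.28, limma adjusted p = 2.7e-05). Igf1, a growth factor of dermal cells, fell from 15.2, 20.2 and 21.6 to 4.14, 5.60 and 5.05 (log2 fold change -1.84 ± 0.16, limma adjusted p = 2.3e-06). Ptch1, a receptor and target of Hedgehog signals, fell from 3.49, 4.29 and 3.89 to 1.43, 1.46 and 1.5 (log2 fold change -1.16 ± 0.09, limma adjusted p = 9.5e-07).

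Most vessel genes fell. Of 24 endothelial genes 17 were lower and 3 higher, or 20 and 1 when scaled to TPM. Kdr, the main receptor of vascular endothelial growth factor, fell from 5.73, 5.66 and 6.69 to 1.81, 1.88 and 1.55 FPKM (log2 fold change -1.54 ± 0.11, limma adjusted p = 6.1e-07). Flt4, of lymphatic vessels, fell from 4.54, 3.60 and 4.87 to 1.05, 1.15 and 1.06 (log2 fold change -1.60 ± 0.10, limma adjusted p = 2.7e-07). The 3 that rose, Vcam1 (0.99 ± 0.25), Sele (0.82 ± 0.17) and Icam1 (0.64 ± 0.15), all encode molecules to which leukocytes adhere. When scaled to TPM Sele (0.41) and Icam1 (0.19) did not pass. Pericyte and smooth muscle genes fell in 7 of 11, and 1 was higher, or 0 when scaled to TPM and 2 without untreated replicate 2. Rgs5, of pericytes, fell from 78.1, 86.8 and 62.8 to 19.3, 24.5 and 19.3 (log2 fold change -1.82 ± 0.16, limma adjusted p = 2.4e-06).

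Hair genes varied between libraries of the same group. Krt71, a keratin of the inner root sheath, had 14.1, 59.1 and 0 FPKM untreated and 0.574, 2.14 and 12.5 after MC903 (limma adjusted p = 0.52, and 0.035 with a log2 fold change of -3.15 without untreated replicate 3). It was chosen after its values were seen, as an example of this spread. Untreated replicate 2 was highest and untreated replicate 3 had no read. Some hair keratins rose well beyond that spread. Krt36, a keratin of hair and nail, went from 0.692, 0.860 and 0.0939 to 428, 489 and 266 (log2 fold change 8.60 ± 0.44, limma adjusted p = 5.5e-08). Krt84, a hair keratin also made in the tongue, went from 0.552, 0.282 and 0.0396 to 319.9, 412 and 179 (log2 fold change 8.56 ± 0.43, limma adjusted p = 4.6e-08). Krt75, of the companion layer of the follicle, went from 3.34, 5.74 and 1.55 to 57.9, 50.7 and 70.7 (log2 fold change 4.03 ± 0.37, limma adjusted p = 3.4e-06). Hoxc13, a factor of hair and nail keratin genes, rose from 2.25, 3.61 and 0.616 to 12.1, 11 and 15.1 (log2 fold change 2.50 ± 0.41, limma adjusted p = 0.00027). Lgr6, of stem cells above the bulge, fell from 12.1, 11.9 and 10.3 to 3.47, 3.42 and 2.70 (log2 fold change -1.69 ± 0.12, limma adjusted p = 5.5e-07). Of 27 hair genes 5 were higher and 7 lower, and without untreated replicate 3 the number lower was 18.

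Most genes of sebaceous glands and fat fell, and about as many muscle genes fell as did not pass. Of 19 sebaceous genes 12 were lower and 2 higher. Scd1, the desaturase of sebum, fell from 3245, 2492 and 2480.3 to 292, 386 and 268 FPKM (log2 fold change -3.12 ± 0.19, limma adjusted p = 1.8e-07). Mc5r, a melanocortin receptor of sebocytes, fell from 9.95, 13.4 and 6.48 to 1.23, 1.75 and 0.615 (log2 fold change -2.62 ± 0.27, limma adjusted p = 7.4e-06). Fabp5, a fatty acid carrier that keratinocytes share, rose from 114, 120.3 and 99.6 to 1743, 1308 and 1432 (log2 fold change 3.74 ± 0.15, limma adjusted p = 1.2e-08). Of 22 adipocyte genes 20 were lower and none higher, with 1 higher without untreated replicate 3. Lep, leptin, fell from 25.2, 41.6 and 30.0 to 4.55, 3.01 and 6.0 (log2 fold change -2.72 ± 0.23, limma adjusted p = 1.5e-06). Pparg, the main transcription factor of fat cells, fell from 24.3, 25.4 and 19.1 to 6.64, 5.54 and 5.83 (log2 fold change -1.84 ± 0.12, limma adjusted p = 2.8e-07). Of 22 skeletal muscle genes 11 were lower as deposited and 21 when scaled to TPM. Myh7, the myosin of slow fibres, fell from 5.54, 9.14 and 9.10 to 1.45, 0.828 and 0.657 (log2 fold change -2.51 ± 0.22, limma adjusted p = 2.4e-06).

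Cartilage genes had the lowest median of all lists. Of 15 tested 14 were lower and none higher (median -2.06). Acan, aggrecan, fell from 103, 80.3 and 126 to 13.3, 12.6 and 13.4 FPKM (log2 fold change -2.90 ± 0.14, limma adjusted p = 2.9e-08). Chad, chondroadherin, fell from 429, 602 and 982 to 54.1, 56.4 and 82.2 (log2 fold change -3.32 ± 0.26, limma adjusted p = 9.9e-07), and Cnmd, chondromodulin, from 108, 82.9 and 148 to 5.68, 7.57 and 7.69 (log2 fold change -3.89 ± 0.21, limma adjusted p = 8.6e-08). Col2a1, the collagen of cartilage, fell from 8.29, 9.16 and 20.8 to 0.925, 2.69 and 1.26 (log2 fold change -2.61 ± 0.35, limma adjusted p = 6.1e-05). Cytl1, a secreted protein of cartilage, was among the 10 most abundant RNAs of untreated libraries, at 3103, 3435 and 4827, and stood at 797, 721 and 1324 after MC903 (log2 fold change -2.03 ± 0.24, limma adjusted p = 2.4e-05). These genes were present in every untreated library, and the labels do not say from which body site the skin came. Matn1, a defining marker of cartilage, was below the minimum, with no read in any untreated library. A 0 for a single gene says little about a tissue here. Tnnc2, of the skeletal muscle list, was also 0 in every wild type library. That list summed to 3868 to 7272 FPKM in untreated libraries. All 5 tested red cell genes were lower, or 3 without untreated replicate 1 or without MC903 replicate 2. Alas2, which starts heme synthesis in red cells, fell from 10.7, 3.55 and 5.98 to 1.99, 1.20 and 2.53 (log2 fold change -1.51 ± 0.38, limma adjusted p = 0.0046). Within the alpha and within the beta globins the gene copies are near-identical.

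Other large falls belonged to no list. Myoc, myocilin, fell from 1220.5, 679 and 1391 to 67.4, 58.4 and 54.9 FPKM (log2 fold change -4.12 ± 0.23, limma adjusted p = 1e-07). Corin, a membrane protease known from heart and hair papilla (ENSMUSG00000005220, chromosome 5, 72300025 to 72504473), fell from 90.1, 103 and 103 to 5.40, 6.30 and 5.99 (log2 fold change -3.96 ± 0.11, limma adjusted p = 1.5e-09). Paqr7, a membrane progestin receptor, fell from 141, 166 and 134 to 14.2, 10.5 and 5.22 (log2 fold change -3.92 ± 0.26, limma adjusted p = 3.3e-07). Cyp2b23, a cytochrome P450, fell from 6.20, 7.25 and 6.47 to 0.246, 0.0281 and 0.0544 (log2 fold change -3.56 ± 0.26, limma adjusted p = 5.5e-07). The secreted protease inhibitors A2m (-3.40 ± 0.41) and Serpina3b (-3.89 ± 0.34) fell in the same range.

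Most genes of the mitochondrial genome and of the clock fell. Of 13 genes of the mitochondrial genome 9 were lower and none higher, with mt-Nd2, a subunit of complex I, at 3789, 4464 and 3099 FPKM untreated and 1341, 1592 and 1761 after MC903 (log2 fold change -1.27 ± 0.18, limma adjusted p = 7.9e-05). mt-Cytb, of complex III, fell from 7268, 8412 and 5849 to 2868, 3334 and 3615 (log2 fold change -1.12 ± 0.19, limma adjusted p = 0.00034). The nuclear subunits of the respiratory chain had no direction that held, with 13 of 38 higher and 6 lower as deposited, and 3 and 22 when scaled to TPM. The number higher was 6 or 7 without untreated replicate 1 or 2 or without MC903 replicate 1 or 3. Of 18 circadian clock genes 12 were lower and 1 higher, or 2 without untreated replicate 3. Per2, a repressor in the core loop, fell from 4.33, 3.60 and 3.87 to 1.24, 1.45 and 1.53 (log2 fold change -1.22 ± 0.10, limma adjusted p = 1.6e-06). The output factors Hlf and Tef fell from 15.5, 13.1 and 10.7 to 4.44, 4.20 and 2.85 (log2 fold change -1.66 ± 0.17, limma adjusted p = 6e-06) and from 32.5, 28.8 and 28.6 to 12.1, 13 and 11.3 (log2 fold change -1.27 ± 0.09, limma adjusted p = 5.8e-07). Bhlhe40, a repressor that hypoxia also induces, rose from 13.5, 15.8 and 15.6 to 33.3, 32.5 and 30.4 (log2 fold change 1.08 ± 0.12, limma adjusted p = 1.1e-05). The labels give no time of day, so a difference in sampling time cannot be told apart from the treatment.

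The same response was weighed against that of skin labelled Trpv3-knockout by the difference of both log2 fold changes in the same model. It passed for 42.1% of the 16507 genes, 3471 with a more positive change in wild type skin and 3479 with a more negative one. The split was not even on other scales, with 2090 more positive and 5320 more negative when scaled to TPM, and 2732 and 4410 by total reads. Only examples from the genes named above are given here. The difference passed for Degs2 (2.91 ± 0.22, limma adjusted p = 2.9e-05) and for Il17rc (2.35 ± 0.14, limma adjusted p = 1.9e-05), both higher in wild type. It passed also for Acan (-1.73 ± 0.19, limma adjusted p = 0.00011) and Cat (-0.82 ± 0.17, limma adjusted p = 0.003), both more negative in wild type. It did not pass for Cyp24a1 (0.40 ± 0.25), Mmp13 (-0.22 ± 0.52), Areg (0.13 ± 0.52) or Ccl4 (0.13 ± 0.36). The chi-square of read counts between replicates, divided by its degrees of freedom, ran from 16.7 to 60.1 for wild type libraries and from 6.46 to 19.6 for knockout libraries. The spread was thus mostly larger in wild type, while the printed p-values rest on a spread pooled over both. A fit on wild type libraries alone left 4 residual degrees of freedom. It gave Acan a limma adjusted p of 3.3e-05 for the MC903 response, in place of 2.9e-08.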

How the data were processed

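RNA of mouse skin was enriched for messenger RNA by its poly-A tail and sequenced after fragmentation, per the labels' protocols. The authors deposited FPKM values for 54532 genes with gene coordinates and lengths. The build mm10 and the counter featureCounts are named, per the submitters' processing notes, and nothing used here gives versions, the strand setting or the aligner. FPKM multiplied by gene length gave whole reads for 100% of values, within 0.01 of a read. The depth term of FPKM implied by the values lay within 0.57% of a median-of-ratios size factor, and sums of FPKM differed between groups, so other scalings were run as alternatives.

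A gene was tested when it reached 0.5 FPKM in at least 3 of 6 wild type libraries. limma 3.58.1 (R 4.3.3) fitted log2(FPKM + 0.5) over 12 skin libraries in 4 groups with a mean trend, which left 8 residual degrees of freedom, and a log2 fold change on this scale understates the change of low genes. P-values were two-sided, adjusted by Benjamini-Hochberg over all 16507 genes, and called below 0.05. Reads from a gene and an overlapping antisense gene cannot be told apart. Means, shares and exact permutation tests used Python 3.11.15 and scipy 1.17.1. The model was also run on simulated reads with few changed genes and the same spread in all groups, so that run does not bear on the calls here.

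The gene lists were chosen with earlier results of these data known, so no list was tested. Named genes were the 15 highest and 15 lowest fold changes (genes that passed, without overlap of groups, at a mean of at least 1 FPKM in the higher group), the 10 most abundant genes of each group, the 10 largest gains and losses of FPKM, and, in each list, the smallest adjusted p-values (up to 6), the largest changes (up to 3), members against the majority, and any member of a list of up to 16 genes. Genes with the 10 smallest adjusted p-values for the genotype difference among the largest changes were named too. Some genes that the rule names are not reported here. Axin2, Ifng, Krt71, Prss27, Timp1, Trem1 and Wnt10b, and for their promoters Gbp5, Gbp7, Il31ra, Irf8, Mcm6 and Top2a, lie outside that rule and were chosen after their values were seen. Alternatives were other pseudocounts, filters, scalings, variance models and sets of libraries.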

Additional observations from a re-analysis of the deposited data

Results flagged for a closer look

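For 9 genes among those with the largest changes, the response to MC903 differed between wild type skin and skin labelled Trpv3-knockout in the same limma model. Values are the difference of both log2 fold changes (wild type minus knockout) with its standard error. The genes were taken from the largest changes in wild type skin, so that the change is larger there follows largely from this choice.

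For 3 genes of the stefin and Sprr2 families the rise was larger in wild type skin. Stfa3, an inhibitor of cysteine proteases, differed by 4.38 ± 0.35 (limma adjusted p = 3.1e-05), from a rise of 9.11 in wild type and 4.73 in knockout skin. Sprr2d differed by 4.02 ± 0.47 (limma adjusted p = 0.00015), with 9.91 and 5.89. Sprr2a1 differed by 2.84 ± 0.31 (limma adjusted p = 0.0001), with 8.95 and 6.12. All belong to families of near-identical copies.

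For 6 genes the fall was larger in wild type skin. Myoc differed by -3.07 ± 0.33 (limma adjusted p = 9.5e-05), Corin by -2.91 ± 0.16 (1.3e-05), Timp3 by -2.82 ± 0.21 (2.9e-05) and Wif1 by -2.66 ± 0.20 (2.9e-05). Cnmd, of cartilage, differed by -2.39 ± 0.30 (limma adjusted p = 0.00022) and Meltf by -1.92 ± 0.23 (0.00016). In knockout skin these 6 genes had log2 fold changes between -1.51 and -0.66. Markers of fibroblasts (5 of 5), adipocytes (4 of 4) and Schwann cells (5 of 5) were also lower after MC903 in wild type skin, and their part in the difference was not tested.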

How the results depend on the processing

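The number of called genes stayed between 9639 and 12013 under all alternatives. The lowest, 9639, came from a fit on wild type libraries alone. Genes at least 2-fold changed numbered between 3325 and 5326, and those whose response differed between genotypes between 5774 and 8989. Scaling to TPM gave 3029 genes higher and 8156 lower, and scaling by total reads 4397 and 6440. A fit on recovered reads with voom called 10826. Leaving out 1 library gave 10011 to 10969 called genes. Same-numbered untreated and MC903 libraries correlated by -0.016, 0.051 and -0.127 in their deviations, and not every library correlated best with its own number. With 3 libraries per group this cannot decide whether numbers pair libraries, and the main model did not pair them. With the replicate number as a block 10941 genes passed, 4144 by at least 2-fold and 6998 for the genotype difference. Of 306 named genes that passed, 292 kept call and direction in the alternatives that tested them. Scaled to TPM, 9 lost the call, and with no filter 4 did (Gm23935, Ifit3, Rplp1 and mt-Cytb). Rxra (-0.46), Plec (-0.44) and Egfr (-0.28), which did not pass as deposited, were lower when scaled to TPM. Of 138 counts of list members, 44 moved by over 1.5 times when scaled to TPM and 14 when scaled by total reads. The difference in the share of the 20 most abundant genes, 1.05 percentage points, lay between -0.14 (without MC903 replicate 3) and 1.95 when 1 library was left out. The restriction to protein-coding genes of at least 200 bases, chosen after seeing the data, called 9864 of 13894. Depth (16869716 to 18485698 reads) limits genes below 0.5 FPKM, which were not tested.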

Other observations

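Of RNA classes outside the lists, small nucleolar RNAs stood out. Of 107 tested snoRNA genes 46 were higher (43.0%) and 2 lower (1.87%), with a median log2 fold change of 1.12. Processed pseudogenes had 256 of 787 higher and 61 lower, and miRNA genes 29 of 131 higher and 4 lower. Protein-coding genes were near balance, with 4960 of 13901 higher and 4746 lower. The protocol selected RNA by its poly-A tail, and the cause of these values was not tested.

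The most abundant RNA of the MC903 libraries by FPKM was Gm23935, a short gene with 5842, 2272 and 3774 FPKM untreated and 8381, 21572 and 38595 after MC903. Its libraries differed widely within both groups (log2 fold change 2.37 ± 0.62, limma adjusted p = 0.0053), and it did not pass with no filter on low values. Lgals7, galectin 7 of stratified epithelium, went from 575, 569.7 and 701 to 4985, 3210.5 and 4549 FPKM (log2 fold change 2.77 ± 0.18, limma adjusted p = 2.8e-07). Rplp1, an acidic ribosomal protein, went from 2506, 2101 and 3268 to 5552, 5242 and 6537 (log2 fold change 1.16 ± 0.19, limma adjusted p = 0.0003). Among the genes that lost most FPKM outside mitochondria were Scd1 and Cytl1.

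A total of 458 genes reached 0.5 FPKM in all MC903 and no untreated library, and 445 of them passed as higher. The reverse held for 521 genes, of which 509 passed as lower. Both sets were picked by their level in 1 group and not the other, so that nearly all passed follows largely from this choice. The minimum of 3 libraries decided membership for 1427 genes that reached it in exactly 3 (median of the mean level 0.631 FPKM), while 1078 genes that reached it in 2 were left out (0.400 FPKM).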
